A study of Saccharomyces cerevisiae with 14 samples.

Results

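This account covers the yeast genes in which cleavage was measured at more than 1 place. The table was reduced to 1178 distinct sites in 1004 genes, after repeats of a position and ribosomal and small nucleolar RNAs were dropped. Of these genes, 154 held 2 or more sites, which together made 328 sites: 137 genes had 2 sites, 14 had 3 and 3 had 4. The other 850 genes had 1 site each. No measured value entered the rule for choosing the genes, but the choice was made with earlier results of these data known. Which sites stand in the table was the authors' choice.

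The RNA was polyA RNA of diploid SK1 cells, a laboratory strain of Saccharomyces cerevisiae that enters meiosis quickly and nearly in step. All cells were MAT a/alpha and homozygous for lys2, for ho::LYS2 and for ndt80::LEU2, so every library lacks intact NDT80, whose product is the transcription factor that takes cells out of pachytene. There was 1 library at each of 0, 1, 2, 3, 3.5, 4, 5, 6, 7 and 8 h after meiosis was induced, all of them wild type for IME4, and the labels do not say whether they came from 1 culture. The libraries with an ime4 deletion and their wild-type controls were not analysed here. The table gives cleavage and no expression level, so the meiotic stage could not be checked against marker transcripts.

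MazF is a bacterial endoribonuclease that cuts RNA in front of the motif ACA and is blocked when the first A carries N6-methyladenosine (m6A). In budding yeast this mark is laid down on mRNA in early meiosis by a complex built around the methyltransferase Ime4, and it is recognised by the reader protein Pho92. Cleavage efficiency is the share of RNA cut at a site, so a low value can mean many methylated copies, but the table does not separate methylation from other reasons for an uncut site. A gene with several sites offers a comparison inside the same gene and library, in which the treatment of the sample is common to its sites. Whether the sites of a gene lie on the same transcripts, at the same RNA abundance, was not tested.

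Each site carries its gene's name and the position listed for it in the table, counted along the strand. In each of the 154 genes the steps between positions equalled the steps between the deposited chromosome coordinates. Those coordinates belong to a genome build that the sources used here do not name, so no bases and no exon or untranslated region were assigned to a site. In a pair of neighbouring sites, the one with the larger position is called downstream and the other upstream. All values are fractions, and differences are downstream minus upstream.

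The depth behind a value is unknown. Between 47.8% and 57.7% of the listed values of these sites at 3.5, 4, 5 and 6 h equalled that of another site in the same library to 12 decimals while being under 1, and 4.66% to 9.75% were exactly 1. No counting interval can be given, and the 4 libraries from 3.5 to 6 h are the replicates of a pair, with no repeat at any single hour.

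The sites of genes with several sites were cut about as much as those of genes with 1 site. Over the libraries from 3.5 to 6 h the median level was 0.829 (quartiles 0.672 and 0.905) for 315 sites of genes with several sites with at least 3 of 4 values, and 0.844 (0.706 and 0.909) for 780 sites of genes with 1 site. A level under 0.5 was found at 12.4% of sites in genes with several sites and at 12.1% of sites in genes with 1 site. By library (3.5, 4, 5 and 6 h) the median was 0.836, 0.845, 0.826 and 0.808 for genes with several sites, and 0.851, 0.865, 0.843 and 0.834 for genes with 1 site. The median of genes with several sites was the lower one in all 4 libraries, which is a description with no test.

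Inside a gene the sites were far from alike. Among 141 genes with all sites measured, the highest minus the lowest site had a median of 0.165 (quartiles 0.0599 and 0.359). In 63 genes (44.7%) this range reached 0.2, and in 27 (19.1%) it was under 0.05. In 109 genes every site was at or over 0.5, in 31 the highest site was above and the lowest below 0.5, and in 1, EMC6, of the membrane protein insertion complex of the endoplasmic reticulum, all sites were below. The highest site of a gene had a median of 0.900 and the lowest 0.712, an order that the choice of highest and lowest sets. Across 159 neighbouring pairs the levels of the downstream and the upstream site were weakly related, with Pearson's r of 0.0571 and Spearman's rho of 0.0866. These pairs share libraries, and 3-site and 4-site genes give more than 1 pair.

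Neighbouring sites were then tested for a difference that held over the libraries from 3.5 to 6 h. Of 159 pairs with both values in at least 3 of the 4 libraries, 102 (64.2%) differed, in 92 of 141 genes. The downstream site was lower in 67 pairs (42.1% of those tested) and higher in 35 (22.0%) (limma, Benjamini-Hochberg adjusted p under 0.05). Before any threshold the downstream site was lower in 103 of the 159. The median size of the difference was 0.161 over all tested pairs and 0.286 over the 102, against a median SE of 0.0456 and a median SD of the difference between libraries of 0.0817. In 14 pairs the difference was 0.5 or more. Of 128 pairs with both values in all 4 libraries, 87 had the same order in every library, and in 76 (59.4%) the 4 values of each site did not overlap those of the other, with the downstream site lower in 52 and higher in 24. Of the 102 pairs, 73 passed with the same sign when any 1 of the 4 libraries was left out. The lowest count without 1 library was 83 pairs, without 6 h.

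**Figure D1:**
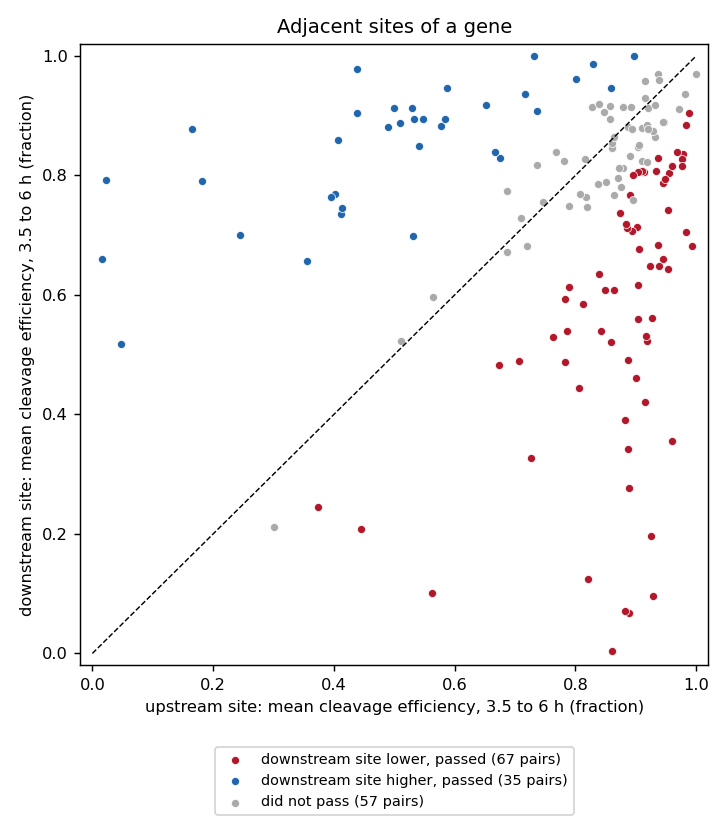
Mean cleavage efficiency from 3.5 to 6 h of the downstream (vertical axis) and upstream site (horizontal axis) of 159 neighbouring pairs, as fractions, with the dashed line at equal values. The 67 pairs with a lower downstream site (red) lie mostly at the right edge, where the upstream site is highly cut, and the 35 with a higher downstream site (blue) at the upper edge. The 57 pairs that did not pass (grey) crowd near the line.

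Among pairs with both values in all 4 libraries, the largest differences joined a site that was almost uncut with one that was cut nearly throughout. In HFA1, which encodes the mitochondrial acetyl-CoA carboxylase, position 6502 (chromosome 13, 666618, minus strand) was at 0.00445, 0.00459, 0.00476 and 0.00518 at 3.5, 4, 5 and 6 h. Its upstream neighbour at 6400 (666720), 102 bases away, was at 0.916, 0.905, 0.734 and 0.885 in the same libraries. The 2 sites did not overlap, with a difference of -0.855 ± 0.0460 (limma estimate ± SE, adjusted p = 1.19e-08, n = 4 libraries). The third site of HFA1, at 4996, was at 0.570, 0.366, 0.323 and 0.370, so that the middle site was higher than both others.

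Other pairs with a lower downstream site showed the same split. MSC6 had 0.105, 0.0979, 0.0761 and 0.107 at position 2365 at 3.5, 4, 5 and 6 h, against 0.915, 0.912, 0.962 and 0.928 at 1520 (difference -0.833 ± 0.0461). MIP1, the mitochondrial DNA polymerase, had 0.0380, 0.0609, 0.145 and 0.0376 at 3889, against 0.885, 0.948, 0.838 and 0.860 at 2854 (-0.812 ± 0.0481). TDA3 had 0.0594, 0.0526, 0.0415 and 0.120 at 1583, against 0.882, 0.946, 0.840 and 0.888 at 1090 (-0.821 ± 0.0455). In none of these genes did a value of the low site reach 0.2 in these libraries. FOX2, the multifunctional enzyme of fatty acid oxidation in peroxisomes, had 0.138, 0.0824, 0.101 and 0.175 at 2176, against 0.804, 0.816, 0.829 and 0.833 at position 296, 1880 bases upstream (-0.697 ± 0.0444). GIP2, which encodes a regulatory subunit of the phosphatase Glc7, had 0.237, 0.251, 0.118 and 0.178 at 1828, against 0.938, 0.898, 0.903 and 0.962 at 1609 (-0.730 ± 0.0498). Adjusted p-values of these 5 pairs ran from 1.19e-08 for MSC6 and TDA3 to 6.36e-08 for GIP2 (limma), and all passed without any 1 of the 4 libraries.

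Lower downstream sites at a middle level were found in BLM10 and FAA1. BLM10, a proteasome activator, had 0.472, 0.327, 0.266 and 0.303 at 3551, against 0.909, 0.915, 0.808 and 0.916 at 3407 (-0.545 ± 0.0517, limma adjusted p = 1.71e-06). FAA1, a fatty acyl-CoA synthetase, had 0.475, 0.482, 0.395 and 0.331 at 2201, against 0.937, 0.947, 0.868 and 0.908 at 2009 (-0.494 ± 0.0496, adjusted p = 2.61e-06). In both genes the downstream values spread more over the 4 hours than the upstream values, and the groups did not overlap.

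The opposite order was largest in MES1, HOP2 and MCM3 among pairs with both values in all 4 libraries. MES1, methionyl-tRNA synthetase, had 0.861, 0.979, 0.867 and 0.801 at position 2312 (chromosome 7, 1037332), against 0.181, 0.0923, 0.181 and 0.205 at 1609 (difference 0.712 ± 0.0547, limma adjusted p = 1.99e-07). HOP2, needed for homologous chromosomes to pair in meiosis, had 0.663, 0.711, 0.626 and 0.638 at 920, against 0.0111, 0.0175, 0.0191 and 0.0181 at 852, 68 bases away (0.643 ± 0.0365, adjusted p = 1.19e-08). MCM3, a subunit of the replicative helicase, had 0.855, 0.833, 0.661 and 0.811 at 1269, against 0.0926, 0.142, 0.148 and 0.345 at 1223 (0.608 ± 0.0559, adjusted p = 1.33e-06). In all 3 genes every downstream value lay above every upstream value, by the smallest margin in MCM3.

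POL2, the catalytic subunit of DNA polymerase epsilon, had 0.689, 0.757, 0.662 and 0.694 at 4598, against 0.193, 0.241, 0.252 and 0.294 at 3529 (0.455 ± 0.0456). PHM7 had 0.375, 0.729, 0.557 and 0.410 at 2573, against 0.0264, 0.0732, 0.0669 and 0.0257 at 2312 (0.470 ± 0.0464). HOS4, a subunit of the Set3 histone deacetylase complex, had 1.00, 0.957, 0.727 and 0.840 at 2939, against 0.525, 0.601, 0.405 and 0.425 at 1782 (0.392 ± 0.0501). The sites of each pair did not overlap, although the downstream sites of PHM7 and HOS4 varied more among the hours than their upstream sites. HFA1 6400 against 4996 (0.453 ± 0.0529) and NCE103 870 against 864, described with the closest pairs, complete the 8 largest among pairs with both values in all 4 libraries.

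**Figure D2:**
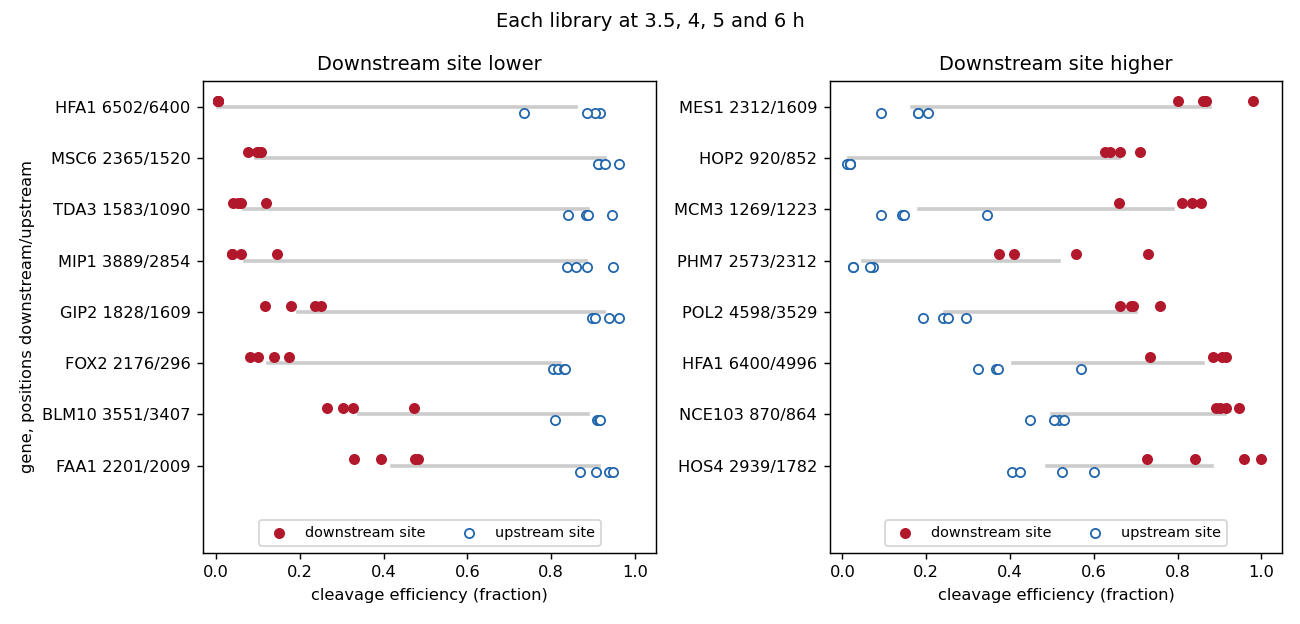
Cleavage efficiency (fraction) in each of the 4 libraries from 3.5 to 6 h for the 8 largest negative (left panel) and 8 largest positive differences (right panel) among pairs valued in all 4, with downstream sites filled and upstream sites open. The grey bar joins the 2 means. In each of the 16 pairs the 4 values of one site lie apart from those of the other.

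A mean under 0.1 was found at 7 sites, in GRX3 (position 5), HOP2 (852), TDA3 (1583), HFA1 (6502), PHM7 (2312), MIP1 (3889) and MSC6 (2365). GRX3, a glutaredoxin, had 0.879, 0.707, 0.788 and 0.907 at 946 at 3.5, 4, 5 and 6 h, against 0.0417, 0.0156 and 0.0111 at position 5 at 3.5, 4 and 5 h, with no value at 6 h (difference 0.769 ± 0.0507 over 3 libraries). All 7 genes also held a site at or over 0.5, and these 7 were picked out after their values were seen.

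At the other end stood pairs whose sites could hardly be told apart. The chaperone gene HSC82, an Hsp90, had 0.876, 0.831, 0.903 and 0.850 at 2168, against 0.870, 0.879, 0.845 and 0.862 at 738, 1430 bases upstream (difference 0.000641 ± 0.0356). SNF12, of the SWI/SNF chromatin remodelling complex, had 0.784, 1.00, 0.843 and 0.898 at 1295, against 0.791, 1.00, 0.843 and 0.916 at 647 (-0.00627 ± 0.0317). PXA2, a transporter of fatty acids into peroxisomes, had 0.937, 0.948, 0.857 and 0.909 at 2653, against 0.931, 0.949, 0.893 and 0.909 at 2035 (-0.00803 ± 0.0282). In SNF12 and PXA2 the 2 sites also went up and down together from hour to hour. At 5 h, however, position 1899 of UBX2 had the same value as both SNF12 sites (0.843). The library medians also rose at 4 h and fell at 5 h, and what lay behind the shared movement was not tested. UBX2, of protein degradation at the endoplasmic reticulum, differed by -0.00700 ± 0.0400, and MDL1, a transporter of the inner mitochondrial membrane, by 0.00799 ± 0.0608 between positions 2213 and 1060. The SE of MDL1 was the largest of these 5 pairs, and its order turned between 3.5 and 5 h (0.879 and 0.612 at 2213, against 0.635 and 0.759 at 1060). Outside these libraries SNF12 was not even, with 0.759 and 0.713 at 2 h and 3 h at 1295, against 1.00 and 0.839 at 647.

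Genes with the most sites showed both a stepwise order and none. PCH2 encodes an ATPase of the checkpoint on meiotic recombination. It has 4 sites on chromosome 2, at 588332, 588941, 589328 and 589539, and their mean level was lower at each step along the gene. Position 1881 was at 0.126, 0.303, 0.213 and 0.194 at 3.5, 4, 5 and 6 h, position 1670 at 0.490, 0.430, 0.431 and 0.426, position 1283 at 0.862, 0.785, 0.850 and 0.728, and position 674 at 0.904, 0.956, 0.847 and 0.949. All 3 steps passed, with differences of -0.235 ± 0.0419 (1881 against 1670), -0.362 ± 0.0495 (1670 against 1283) and -0.108 ± 0.0430 (1283 against 674) (limma, adjusted p = 0.000298, 3.32e-05 and 0.0428). The values of 1283 and 674 overlapped at 5 h, and this step was lost without 4 h (0.109) and without 6 h (0.250).

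In NUP159, a nucleoporin of the cytoplasmic face of the pore, means of the 4 sites lay between 0.736 and 0.874, and 1 of 3 steps passed, at 4256 against 3288 (-0.138 ± 0.0528, adjusted p = 0.0366, limma). In TCB3, a tether between the endoplasmic reticulum and the plasma membrane, position 4343 was the low one, with 0.726, 0.678, 0.539 and 0.595, and it differed from 2234 upstream (-0.205 ± 0.0571) while 4615 differed from it (0.172 ± 0.0572). The last TCB3 site, at 4732, was at 0.881, 0.923, 0.934 and 0.954. SPT16, of the histone chaperone FACT, and BCK1, a kinase of the cell wall integrity pathway, each had 1 passing step, at -0.148 ± 0.0440 (1508 against 215) and -0.103 ± 0.0379 (4136 against 589). Each of these calls was lost without some single library. The adjusted p was 0.199 without 3.5 h and 0.170 without 5 h in NUP159, and 0.0773 without 5 h in SPT16, whose position 1508 had no value at 6 h. It was 0.0722 without 5 h and 0.0956 without 6 h for TCB3 4343 against 2234, and 0.120 without 4 h and 0.140 without 6 h for TCB3 4615 against 4343. In BCK1 it was 0.0672, 0.181 and 0.0807 when the library at 3.5, 4 or 6 h was left out.

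Spacing between neighbouring sites ran from 6 to 3551 bases, with a median of 490.5 (quartiles 225 and 1049.5, 174 pairs). The size of the difference did not follow it closely: across the 159 tested pairs Spearman's rho of spacing with the size of the difference was 0.0787 and Pearson's r was 0.0447. Of 31 tested pairs over 50 and up to 200 bases apart, 17 passed (54.8%), of 49 up to 500 bases 29 (59.2%), of 32 up to 1000 bases 20 (62.5%) and of 42 farther apart 32 (76.2%), beside 64.2% of all pairs. The median size of the difference in these classes was 0.0986, 0.172, 0.116 and 0.212. Only 5 pairs lay within 50 bases, of which 4 passed, 2 in each direction.

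The closest pairs were not alike. In NCE103, the carbonic anhydrase gene, position 870 (chromosome 14, 572040) was at 0.891, 0.900, 0.946 and 0.914 at 3.5, 4, 5 and 6 h, against 0.518, 0.529, 0.505 and 0.448 at 864, 6 bases upstream (difference 0.413 ± 0.0481, limma adjusted p = 1.08e-05). In HFM1, the meiotic helicase also called Mer3 that promotes crossovers, position 3888 was at 0.590, 0.634, 0.454 and 0.449, against 0.934, 0.908, 0.916 and 0.908 at 3881, 7 bases upstream (-0.385 ± 0.0510, adjusted p = 2.59e-05). The order was thus opposite in these 2 genes, with no overlap in either. POL2 positions 3529 and 3494, 35 bases apart, were both low, at 0.193, 0.241, 0.252 and 0.294 against 0.330, 0.321, 0.430 and 0.414 (-0.129 ± 0.0349, adjusted p = 0.00602), and did not pass without 3.5 h (0.0644). Sites this near can lie on the same RNA fragments, and how the authors counted reads that span both is not stated in the sources at hand.

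The farthest pairs also held both outcomes. SSM4, a ubiquitin ligase of the endoplasmic reticulum, had 0.949, 0.897, 1.00 and 0.941 at 3939, against 0.529, 0.550, 0.671 and 0.599 at 388, 3551 bases away (0.359 ± 0.0444, limma adjusted p = 1.68e-05). CHS3, a chitin synthase, had 0.940, 0.874, 0.923 and 0.886 at 3579, against 0.845, 0.889, 0.824 and 0.832 at 571 (0.0583 ± 0.0350, adjusted p = 0.165). SSM4 differed without overlap, while CHS3 overlapped at 4 h.

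**Figure D3:**
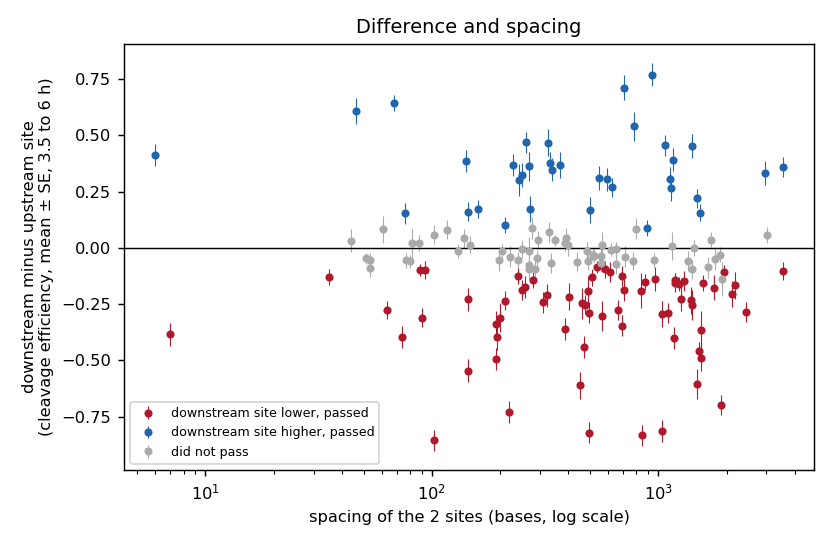
Difference in cleavage efficiency (downstream minus upstream, mean ± SE over the libraries from 3.5 to 6 h) against the spacing of the 2 sites in bases on a log axis, for 159 pairs. Differences of both signs occur among the closest and among the farthest pairs, and Spearman's rho of spacing with the size of the difference is 0.0787.

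Pathway lists were small here, and their members were read against the 64.2% of all pairs. In early meiotic recombination and synapsis 6 of 7 tested pairs differed (median size 0.235). The downstream site was lower in 5, from PCH2, HFM1 and the crossover gene SPO22, and higher in 1, in HOP2. PCH2 gave 3 of the 5, which share sites, and its step of 1283 against 674 was lost without 4 h or without 6 h. MEI5, a cofactor of the meiotic recombinase Dmc1, did not pass (-0.0135, adjusted p = 0.713, limma). In DNA replication and repair all 9 tested pairs differed, 6 with the downstream site lower and 3 with it higher (median size 0.332). They came from the helicase genes MCM2 and MCM3, the origin recognition gene ORC1, POL2, the cohesion genes PDS5 and SMC1, and the break repair gene RAD50, of which MCM3 and POL2 gave 2 pairs each, sharing a site, with opposite orders. PDS5, a cohesin-associated protein, had 0.0767, 0.0646, 0.0818 and 0.184 at 2971, against 0.475, 0.610, 0.617 and 0.546 at 1455 (-0.460 ± 0.0417, limma adjusted p = 1.23e-06). Not every repair gene is in this list. The repair gene RAD57, outside it, did not pass (-0.0617 ± 0.0414, limma adjusted p = 0.207). The list of regulators of meiotic entry and m6A gave only 1 tested pair, in SPO1. This meiotic gene with similarity to phospholipases is not read here as an entry regulator. SPO1 had 0.696, 0.658, 0.887 and 0.851 at 1860 against 0.577, 0.655, 0.717 and 0.798 at 1583 and did not pass (0.0865 ± 0.0489, limma adjusted p = 0.142).

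In lipid, inositol and sterol synthesis 6 of 7 pairs differed, 5 with the downstream site lower. ERG5, a sterol desaturase, had 0.584, 0.516, 0.577 and 0.559 at 1934, against 0.916, 0.881, 0.915 and 0.905 at 1244 (-0.345 ± 0.0456). HMG2, an HMG-CoA reductase, had 0.790, 0.673, 0.649 and 0.626 at 2445, against 0.947, 0.943, 0.942 and 0.912 at 1971 (-0.252 ± 0.0426). In ERG5 and HMG2, as in FAA1, the downstream values did not overlap the upstream ones. HMG2 1971, however, lay above the third HMG2 site at 491 (0.220, limma adjusted p = 0.000656). Another sterol gene, ERG6, did not pass (-0.0343 ± 0.0302, limma adjusted p = 0.331). In proteasome and ubiquitin all 3 pairs had a lower downstream site, in BLM10, UBA1 and HUL5. The list does not hold every ubiquitin gene. Outside it, the ubiquitin ligase gene SSM4 was higher downstream (0.359 ± 0.0444), and UBX2 did not pass (-0.00700 ± 0.0400). The ubiquitin protease genes UBP2 (-0.0151 ± 0.0320) and UBP5 (0.0197 ± 0.0633) did not pass either. UBA1 is the ubiquitin-activating enzyme, and had 0.693, 0.564, 0.691 and 0.691 at 2982, against 0.881, 0.961, 0.974 and 0.965 at 539 (-0.285 ± 0.0455), and the ubiquitin ligase gene HUL5 differed by -0.228 ± 0.0511.

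In cell wall and glycosylation 3 of 4 pairs had a lower downstream site, all in the protein O-mannosyltransferases PMT2 and PMT5. PMT2 had 0.470, 0.572, 0.708 and 0.716 at 2543, against 0.871, 0.867, 0.919 and 0.961 at 2051 (-0.288 ± 0.0482), which in turn lay below 1516 (-0.0843 ± 0.0261). PMT5 differed by -0.234 ± 0.0599. Among genes of acetate use 2 of 3 pairs differed, with JEN1, the lactate and pyruvate carrier, lower downstream (-0.144 ± 0.0340) and ACH1, the acetyl-CoA hydrolase, higher (0.308 ± 0.0501). MDH2, the malate dehydrogenase of gluconeogenesis, did not pass (-0.0392 ± 0.0463). In respiration IDP1, a mitochondrial isocitrate dehydrogenase, was higher downstream (0.368 ± 0.0565), HAP4, of the activator of respiratory genes, lower (-0.0985 ± 0.0408, adjusted p = 0.0495), and ATP2, of ATP synthase, did not pass (0.0438 ± 0.0438). The HAP4 call was lost when the library at 3.5, 4 or 5 h was left out (0.0803, 0.215 and 0.170).

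Of the single pairs in other lists, PFK2, of phosphofructokinase, was lower downstream (-0.161 ± 0.0314), and TIF4631, the initiation factor eIF4G1, higher (0.104 ± 0.0355, over 3 libraries in which its downstream site was at 1.00). That call was lost when the library at 4, 5 or 6 h was left out (0.0726, 0.0503 and 0.0807). PEP4 and HSC82 did not pass. Of 3 pairs in nutrient and kinase signalling, CDC25, the exchange factor of Ras, was lower downstream (-0.289 ± 0.0463), REG1, of the phosphatase that mediates glucose repression, higher (0.346 ± 0.0516), and the kinase gene YPK2 did not pass (-0.0599 ± 0.0291, adjusted p = 0.0908, limma), except without 4 h (0.00165). With 1 to 9 pairs per list, these shares are descriptions.

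The order of neighbouring sites from 3.5 to 6 h was compared with that in the 6 libraries not used to find it. Of the 102 pairs that differed, the same order was found before this window in 7 of 8 pairs with both values (0 h), 26 of 32 (1 h), 69 of 73 (2 h) and 61 of 68 (3 h). After it, 52 of 55 pairs (7 h) and 35 of 39 (8 h) had the same order. A fit of the 6 outer libraries alone, added after seeing the data, tested 52 of these pairs, of which 50 kept their sign and 35 passed again in the same direction (limma, adjusted p under 0.05), where 39 of all 85 pairs tested passed (45.9%). The exceptions in sign were MRX3, with a difference of 0.155 from 3.5 to 6 h and -0.0613 outside, and TGL4, a lipase, with 0.0876 and -0.0335.

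The size of the differences was smaller at 2 and 3 h than from 3.5 to 7 h. Over 60 pairs with both values in each library from 2 to 7 h, the median size of the difference was 0.144, 0.122, 0.163, 0.166, 0.221, 0.186 and 0.209 in the order 2, 3, 3.5, 4, 5, 6 and 7 h. The highest median of this set was thus at 5 h and the lowest at 3 h. At 8 h, over the 69 pairs with both values there, the median was 0.146, against 0.219 over 88 pairs at 7 h. This is a description of 1 library per hour, with no test.

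Whether a pair moved apart or together over the whole course was tested as a slope of the difference on the hour. Of 56 pairs in 54 genes with both values in at least 8 libraries, 3 passed (5.36%), with a falling difference in 1 (1.79%) and a rising one in 2 (3.57%), all with limma adjusted p = 0.0151. At an unadjusted p under 0.05 there were 7 rising and 8 falling differences, and over the 56 pairs 28 slopes were positive and 28 negative, with a median size of 0.0202 per hour. In BLM10 position 3551 was at 0.638, 0.646, 0.521, 0.472, 0.327, 0.266, 0.303 and 0.261 at 1, 2, 3, 3.5, 4, 5, 6 and 7 h, while position 3407 stayed between 0.808 and 0.933. The 2 sites were closest at 1 h and 2 h, and the slope of their difference was -0.0776 ± 0.0188 per hour.

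In REG1 it was the upstream site that fell. Position 3300 stayed between 0.859 and 0.964, while position 2962 was at 0.901, 0.928, 0.845, 0.742, 0.591, 0.625, 0.401, 0.574, 0.479 and 0.577 at 0, 1, 2, 3, 3.5, 4, 5, 6, 7 and 8 h, so the difference widened by 0.0545 ± 0.0130 per hour. In PEP4, vacuolar proteinase A, position 1434 stayed between 0.840 and 0.916, and position 1144 was at 1.00, 0.976, 0.974, 0.944, 0.937, 0.969, 0.923, 0.855, 0.673 and 0.694. Their order thus turned, with 1434 lower through 5 h and higher from 6 h, and the difference rose by 0.0378 ± 0.00847 per hour. The PEP4 slope was lost from 0 to 6 h (0.0168, adjusted p = 0.279, limma). BLM10 and REG1 were lost without 1 h (0.103 and 0.0773) or without 2 h (0.0844 and 0.0532), each leaving 1 passing pair. The number of passing pairs was 5, 7 and 10 when the library at 0, 7 or 8 h was left out.

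From 0 to 6 h 9 of 98 pairs passed (9.18%), 5 with a falling and 4 with a rising difference. Besides BLM10 (-0.0836) and REG1 (0.0735) these were NCE103 (0.0712), ACH1 (0.0721) and ARP2, of the actin-nucleating Arp2/3 complex (0.0705), with rising differences, and TCB3 (4343 against 2234, -0.0864), HAL5, a kinase of potassium uptake (-0.0530), MFB1, a mitochondrial F-box protein (-0.114), and YDR154C (-0.0738), all slopes per hour. The 2 positions of YDR154C are also listed in the table under YDR155C, the cyclophilin gene CPR1, so their gene is uncertain. In NCE103 the 6 bases between sites parted a steady one, between 0.891 and 0.983 over 10 libraries, from position 864, at 0.941, 0.757, 0.710, 0.649, 0.518, 0.529, 0.505, 0.448, 0.488 and 0.744 at 0, 1, 2, 3, 3.5, 4, 5, 6, 7 and 8 h. The value at 8 h was higher than all from 3 to 7 h, and over all 10 libraries the slope of the difference did not pass (0.0309 ± 0.0148, adjusted p = 0.182).

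**Figure D4:**
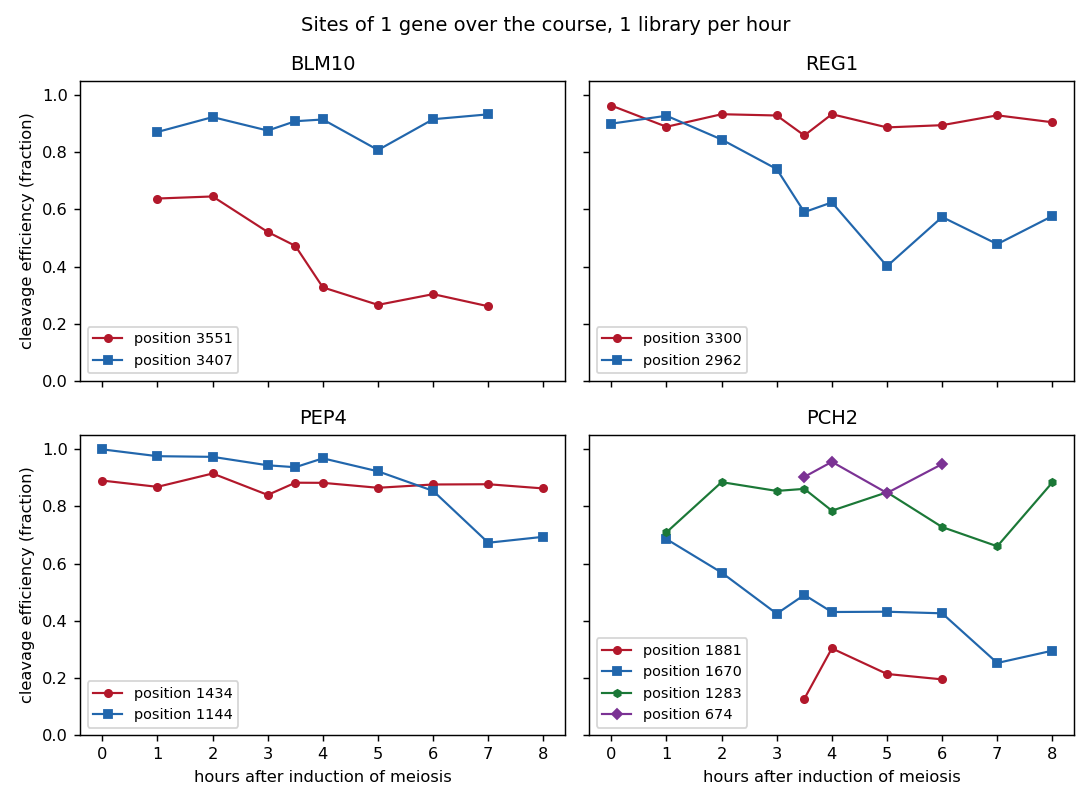
Cleavage efficiency (fraction) by hour after induction of meiosis, 1 library per hour, for the sites of BLM10, REG1, PEP4 and PCH2, each line 1 position. In BLM10, REG1 and PEP4 1 site is nearly flat while the other declines, and the 4 sites of PCH2 keep their order at 3.5, 4 and 6 h, with position 1283 just above position 674 at 5 h.

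Single sites were also fitted on the hour, over all 586 sites of the series with at least 8 values, of which 18 fell (3.07%) and 0 rose (0.00%), with 97 falling and 8 rising at an unadjusted p under 0.05. Of the 172 sites in genes with several sites, 6 fell (29 falling and 2 rising at an unadjusted p under 0.05, limma), against 12 of 414 in genes with 1 site. The share that fell, 3.49%, was near that of all sites, and 129 of the 172 slopes (75.0%) were negative, against 73.4% of all. The 6 sites were each in a different gene and were PEP4 1144, HAP4 1220, ACH1 154, BLM10 3551, PCH2 1670 and REG1 2962. Their neighbours PEP4 1434, HAP4 1313, ACH1 1274, BLM10 3407, PCH2 1283 and REG1 3300 were fitted too and did not pass. The falling site was the upstream one in PEP4, HAP4, ACH1 and REG1 and the downstream one in BLM10 and PCH2. The difference between the falling site and its neighbour was itself tested above, and passed in PEP4, BLM10 and REG1 but not in PCH2 (adjusted p = 0.101), ACH1 (0.101) or HAP4 (0.197). The 6 calls dropped to 0 without any 1 of the 1, 2, 3, 3.5, 4, 5 or 6 h libraries (24 to 34 at an unadjusted p under 0.05, limma) and after shifting the libraries to 1 median, and to 2 without 7 h, and were 15 without 8 h.

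Most genes had all their sites listed from 3.5 to 6 h, and fewer had so at either end of the course. All sites of a gene had a value in 148, 144, 130 and 136 of 154 genes in the libraries of 3.5, 4, 5 and 6 h. The number was 18, 51, 111 and 93 in those of 0, 1, 2 and 3 h, and 74 and 60 in those of 7 and 8 h. Some but not all sites had a value in 32 genes (0 h), 58 (1 h), 52 (7 h) and 48 (8 h), and no site had one in 104 (0 h), 45 (1 h), 28 (7 h) and 46 (8 h). The share of sites listed was 92.4% at 5 h and 93.0% at 6 h for genes with several sites, against 87.4% at both hours for genes with 1 site, and 21.0% against 26.4% at 0 h, without a test.

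Where 1 site of a neighbouring pair was listed alone, it was the downstream one in 26 pairs and the upstream one in 8 at 0 h. The counts were near even at later hours outside 3.5 to 6 h, with 32 and 32 (1 h), 19 and 21 (2 h), 29 and 25 (3 h), 29 and 25 (7 h) and 26 and 26 (8 h). Among the 102 pairs that differed, the site listed alone was the one more highly cut from 3.5 to 6 h in 14 of 26 pairs (0 h), 24 of 39 (1 h), 17 of 25 (2 h), 14 of 26 (3 h), 17 of 29 (7 h) and 22 of 34 (8 h). In PCH2 the highest site, 674, and the lowest, 1881, were listed from 3.5 to 6 h alone, while the middle sites 1283 and 1670 had values from 1 to 8 h. The sources used here do not say when a value was left missing.

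**Figure D5:**
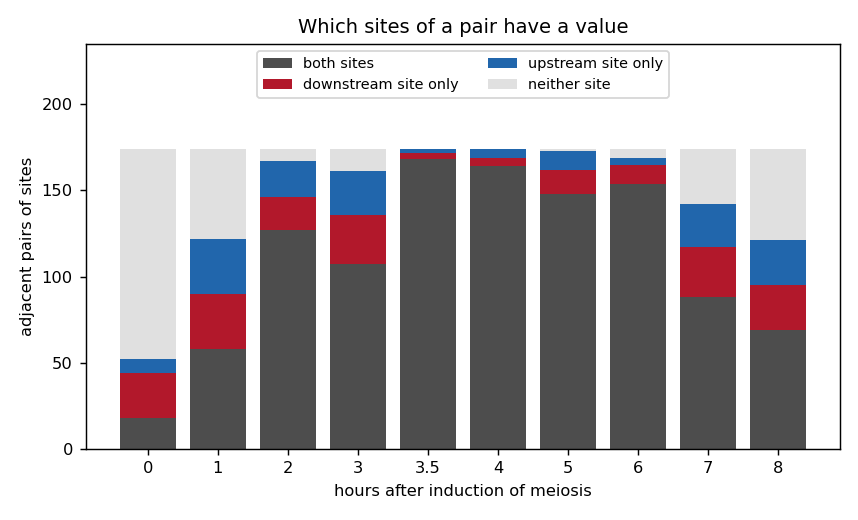
Number of the 174 neighbouring pairs (vertical axis) in which both sites, the downstream site alone, the upstream site alone or neither had a value, by hour after induction of meiosis. Both sites were listed in 168 pairs at 3.5 h, the highest bar, and in 18 at 0 h, the lowest.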

How the data were processed

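RNA of 10 libraries, 1 per hour of a meiotic time course, was treated with MazF. The authors deposited cleavage efficiency per site as a fraction. STAR 2.5.3a and bedtools 2.26.0 are named in the submitters' processing notes. The sources used here name no build and no filter on values, and depth is unknown, so precision comes from the spread between libraries. Columns of 4 libraries matched no label and were not used.

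Rows repeating a position (14) and 6 further rows of ribosomal or small nucleolar RNA were dropped, and 153 of 154 gene identifiers were matched to names. Differences (downstream minus upstream) were computed per library in Python 3.11.15 with pandas 2.3.3. They were fitted in limma 3.58.1 (R 4.3.3) with a prior variance following the mean level, and p-values were adjusted by Benjamini-Hochberg with a threshold of 0.05. The fits were an intercept over 3.5 to 6 h (both values in at least 3 of 4 libraries), and a line over the hour (at least 8 of 10), which was also used for single sites over the whole table. Only the pair fits were run on simulated data, with normal noise and a prior variance that did not follow the level. The fits as used here, and the fit of single sites, were not simulated. Libraries are neighbouring hours, not separate cultures of 1 hour, so p-values measure the scatter between them.

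Named pairs were, among those with both values in all 4 libraries, the 8 largest differences that passed in each direction and the 5 smallest of all tested. To these were added those passing over the hour, the 5 genes with most sites (ties broken by the wider span of positions), the 3 closest and 3 farthest pairs, up to 3 pairs per gene list, and members passing the site trend. Others are named where a count is spelled out. Members and lists were chosen with earlier results of these data known. Alternatives covered scale, library scaling, the variance model, missing values, pairs and libraries.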

Additional observations from a re-analysis of the deposited data

How the results depend on the processing

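The count of 102 differing pairs from 3.5 to 6 h stayed between 86 and 114 under changes of scale, library scaling, variance model, missing values and choice of pairs, and between 83 and 102 without 1 library. No pair that passed changed sign under these changes. With all 10 libraries 40 of 56 tested pairs passed, and with the 6 outer libraries, added after seeing the data, 39 of 85. The 3 pairs with a changing difference became 6 on the arcsine scale, 6 without a level-dependent prior and 9 from 0 to 6 h, and 1 to 10 without 1 library. The 6 falling sites became 0 after shifting libraries to 1 median (25 at an unadjusted p under 0.05, limma), 0 with values in at least 6 libraries (49 unadjusted), and 0 to 15 without 1 library. The cause of these moves was not tested, except that the number of pairs or sites tested also changed with the libraries used.

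Of the named pairs, 4 whose difference was near 0 turned sign. HSC82 was at -0.00337 with all 10 libraries, -0.00604 in the outer 6 and -0.0185 to 0.0170 without 1 library. MDL1 was at -0.0178, -0.0436 and -0.0708 to 0.0597 under the same settings. PXA2 was at 0.00408 in the outer 6 and -0.0129 to 0.00146 without 1 library. UBX2 was at 0.0363 (arcsine), 0.353 (logit) and -0.0377 to 0.0198 without 1 library. MRX3 and TGL4, which had passed, also turned in the outer 6 (-0.0613 and -0.0335).

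No paired analysis was possible because no groups of replicates were compared: the columns used hold 1 library per hour and the control columns matched no label. The differences between sites were themselves taken within each library. Depth limits every value by an unknown amount.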
